A study of Mus musculus with 12 samples.

Results

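The genes described here are 9 transcripts of blood monocytes and of macrophages in general, measured in the stromal vascular fraction (SVF, the cells of fat tissue that remain once the adipocytes have been floated off) of mouse inguinal white adipose tissue. They were chosen by name, as 3 monocyte genes (Ccr2, Ly6c2 and Plac8) and 6 macrophage genes (Lyz2, Adgre1, Csf1r, Mertk, Cx3cr1 and Spi1), and all 9 were found by symbol among the 55536 genes of the deposited tables. Earlier results of these data were known when the genes were chosen. All 9 passed the filter on low values in both comparisons. RNA sequencing of polyA RNA was done on 12 libraries, 1 per male mouse, of a mixed C57BL6/J-129SV background kept at room temperature. The 3 groups of 4 mice were 12-month-old Pdgfrb-KO mice, 12-month-old controls and 2-month-old controls. The KO mice carried Sma-CreERT2, a fluorescent R26 reporter and Pdgfrb fl/fl, and tamoxifen removed the floxed alleles in cells in which the Sma (Acta2) promoter is active, such as the smooth muscle and mural cells of vessels. The study's text describes its controls as Sma-CreERT2 mice with an R26 reporter given tamoxifen as well, while the sample labels call both control groups wild type. The first question was which of these genes differed with age, and the second which differed with Pdgfrb deletion at 12 months of age.

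Monocytes circulate in blood, enter tissues through the chemokine receptor CCR2 and can there become macrophages, which engulf dead cells, debris and lipid. Tissue macrophages live on signals through the receptor CSF1R, and the transcription factor PU.1, the product of Spi1, drives many of the genes that define the whole lineage. In fat, macrophages surround dying adipocytes and increase in obesity. Classical monocytes carry high Ly6C and CCR2, whereas CX3CR1 marks the patrolling, non-classical monocytes and many resident macrophages.

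Values are normalized counts, meaning gene counts that the authors divided by a size factor for each library. The 12 libraries summed to between 19616978 and 21872836 of these, a narrow range that the division itself produces. Pdgfrb, the targeted gene, stood at 1882, 2145, 1707 and 1749 in the 12-month Pdgfrb-KO libraries, against 3000, 4380, 3258 and 2399 in the 12-month controls (log2 fold change -0.77, limma adjusted p = 0.016), and at 2536, 2367, 2349 and 2407 in the 2-month controls. With age Pdgfrb was not called (log2 fold change 0.40, limma adjusted p = 0.068), and the libraries of the control groups overlapped. Every KO library was below every 12-month control library. Broad leukocyte genes marked the SVF in all groups, and those of mature adipocytes summed to 916 to 1656 in Pdgfrb-KO libraries, 1123 to 1990 in 12-month controls and 696 to 808 in 2-month controls. The RNA comes from a mixture of cells, so a higher level through more monocytes or macrophages cannot be told apart from more RNA per cell.

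With Pdgfrb deletion, 5 of the 9 genes were higher and 0 were lower at an adjusted p under 0.05 (limma, a linear model fitted to log2 of the normalized count plus 1, over 16344 genes). These were Plac8 among the 3 monocyte genes and Lyz2, Adgre1, Csf1r and Spi1 among the 6 macrophage genes. Across all genes tested, 4.96% were called higher and 4.46% lower. The same 5 genes were those in which every KO library exceeded every control library, which held for 9.05% of all genes, while 8.06% had every KO library lower, a pattern seen in 0 of the 9. The median log2 fold change was 0.73 over the 9 genes, against -0.01 over all genes. None of the 9 had a negative estimate in this comparison, the lowest being 0.31 for Cx3cr1, and 7 were higher at an unadjusted p under 0.05, Ccr2 and Mertk being the additional ones.

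With age, 7 of the 9 were higher at 12 months than at 2 months in the control mice and 0 were lower (1, Mertk, at an unadjusted p under 0.05). The exceptions were Ly6c2 and Mertk. Over 16399 genes tested, 11.3% were called higher with age and 11.4% lower. In the same 7 genes every 12-month library exceeded every 2-month library, a pattern of 12.3% of all genes, and 12.5% of all genes had every 12-month library lower, which 0 of the 9 did. The median log2 fold change was 0.80 over the 9 genes and -0.01 over all genes. The same 4 libraries from 12-month controls serve as the tested side here and as the baseline of the deletion comparison, so the members' values in each comparison are set side by side without relating one fold change to the other.

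**Figure D1:**
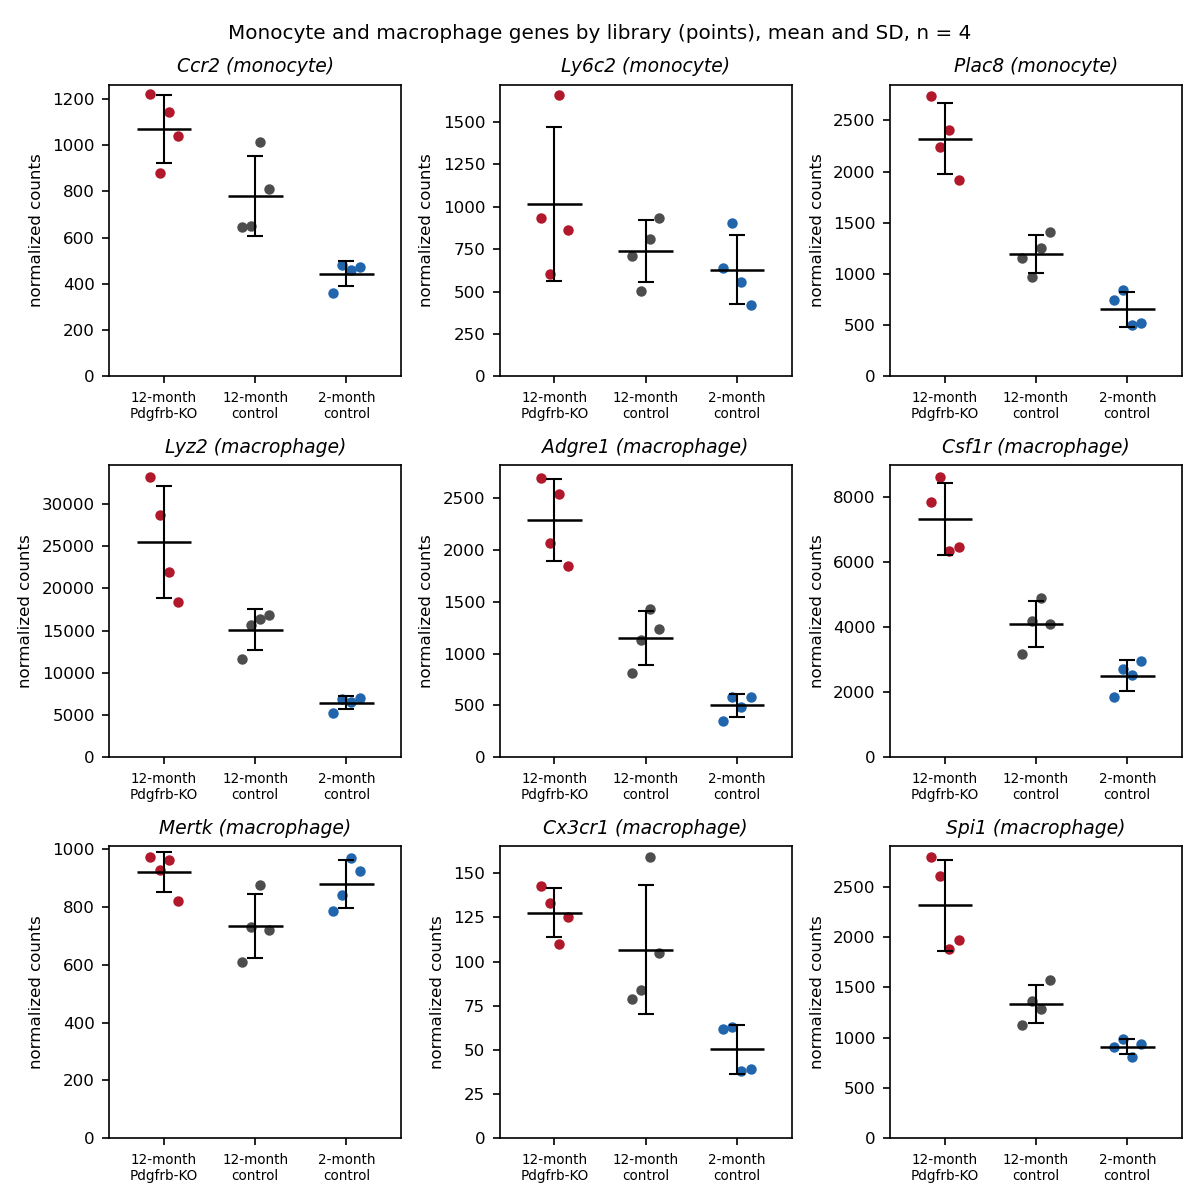
Normalized counts of the 9 genes (y axis, from 0) in the 12-month Pdgfrb-KO, 12-month control and 2-month control groups (x axis). Points are libraries in order of replicate number, horizontal lines are means and bars are the SD of 4 libraries; Lyz2, Adgre1, Csf1r, Plac8 and Spi1 form 3 groups that do not overlap, while the groups overlap for Mertk and Ly6c2.

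Among the macrophage genes, Lyz2, which encodes the lysozyme of macrophages, monocytes and neutrophils (ENSMUSG00000069516, chr10:117277331-117282321, minus strand, GRCm38), was the most abundant of the 9 per kilobase of exon. It had 33129, 28627, 21869 and 18362 normalized counts in 12-month Pdgfrb-KO libraries, 11579, 15615, 16347 and 16843 in 12-month controls, and 5300, 6946, 6576 and 7021 in 2-month controls. The 3 groups did not overlap, although the lowest KO library stood close to the highest 12-month control and the KO libraries were the most spread. Lyz2 was 1.66-fold higher with Pdgfrb deletion (95% interval 1.24 to 2.24, limma adjusted p = 0.0386). This call was lost when any library but Pdgfrb-KO replicate 4 was left out, with adjusted p between 0.0518 and 0.111 over those 7 fits. With age Lyz2 was 2.33-fold higher (95% interval 1.90 to 2.85, limma adjusted p = 0.000118), and that call held in all 18 alternatives.

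Adgre1 encodes F4/80, the surface receptor used most often to identify mouse macrophages (ENSMUSG00000004730, chr17:57358691-57483527, plus strand). Its normalized counts were 2698, 2070, 2538 and 1848 in 12-month Pdgfrb-KO libraries, 810, 1136, 1434 and 1240 in 12-month controls, and 348, 583, 487 and 582 in 2-month controls. Again the groups were fully apart. The difference was 2.00-fold with deletion (95% interval 1.52 to 2.63, limma adjusted p = 0.00664) and 2.31-fold with age (1.74 to 3.07, limma adjusted p = 0.00107). By the ratio of means, the KO libraries held 4.58 times the Adgre1 of the 2-month controls, the largest such ratio among the 9 genes, a value set across separately tabulated groups and not tested.

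Csf1r, the receptor for the macrophage growth factors CSF1 and IL-34 (ENSMUSG00000024621, chr18:61100598-61132149, plus strand), had 7838, 8631, 6341 and 6459 normalized counts in 12-month Pdgfrb-KO libraries, 3187, 4197, 4886 and 4103 in 12-month controls and 1839, 2719, 2526 and 2955 in 2-month controls. All KO libraries were above all 12-month controls, and these above all 2-month controls. The fold change was 1.79 with deletion (95% interval 1.42 to 2.26, limma adjusted p = 0.00678) and 1.64 with age (1.29 to 2.07, limma adjusted p = 0.00742). Csf1r lies 15536 bases beyond the end of Pdgfrb on the same strand, so the neighbour of the deleted gene is itself one of the 9. The other 4 genes that were higher with deletion lie on chromosomes 2, 5, 10 and 17. Whether the position of Csf1r beside Pdgfrb has a part in its difference was not tested.

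Spi1 encodes PU.1 (ENSMUSG00000002111, chr2:91082390-91115756, plus strand), which B cells and mast cells also make. It had 2798, 2602, 1881 and 1974 normalized counts in 12-month Pdgfrb-KO libraries, 1122, 1365, 1283 and 1570 in 12-month controls and 904, 985, 807 and 941 in 2-month controls, with no overlap between groups. Spi1 was 1.72-fold higher with deletion (95% interval 1.36 to 2.17, limma adjusted p = 0.0104) and 1.46-fold higher with age (1.24 to 1.72, limma adjusted p = 0.00441). The age difference of this regulator was the smallest among the 7 genes that were higher.

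The fractalkine receptor gene Cx3cr1 (ENSMUSG00000052336, chr9:119901616-120069879, minus strand) was the least abundant of the 9 per kilobase of exon. Its normalized counts were 143, 133, 110 and 125 in 12-month Pdgfrb-KO libraries, 79, 84, 159 and 105 in 12-month controls and 62, 63, 38 and 39 in 2-month controls. The highest library of all was a 12-month control, so the KO and control ranges overlapped. With age Cx3cr1 was 2.07-fold higher (95% interval 1.40 to 3.05, limma adjusted p = 0.0134). Its ratio with deletion was 1.24 (95% interval 0.88 to 1.74, limma adjusted p = 0.413), an interval that holds both no difference and one as large as that of Spi1.

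Mertk, a receptor tyrosine kinase by which macrophages take up dying cells (ENSMUSG00000014361, chr2:128698956-128802894, plus strand), was the one member with a negative estimate with age. It had 973, 927, 962 and 821 normalized counts in 12-month Pdgfrb-KO libraries, 610, 729, 877 and 721 in 12-month controls and 785, 842, 968 and 923 in 2-month controls. The KO and the 2-month libraries thus covered nearly the same range, with the 12-month controls reaching lower. The ratio was 0.83 with age (95% interval 0.70 to 0.99, limma adjusted p = 0.112) and the log2 fold change 0.33 with deletion (95% interval 0.06 to 0.61, limma adjusted p = 0.113), neither past the threshold. Without 12-month control replicate 3, the highest of its group, the age estimate was -0.36 on the log2 scale with a limma adjusted p of 0.0319.

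Of the monocyte genes, Plac8, which encodes a small cysteine-rich protein of monocytes, neutrophils and some lymphocytes (ENSMUSG00000029322, chr5:100553725-100572245, minus strand), was the one called higher in both comparisons. It had 2737, 2235, 2403 and 1913 normalized counts in 12-month Pdgfrb-KO libraries, 1154, 972, 1256 and 1414 in 12-month controls and 745, 847, 500 and 525 in 2-month controls. No groups overlapped. Plac8 was 1.94-fold higher with deletion (95% interval 1.56 to 2.41), with the smallest limma adjusted p among the 9 in that comparison, 0.00246. With age it was 1.86-fold higher (95% interval 1.44 to 2.40, limma adjusted p = 0.0034).

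Ccr2, the receptor for the chemokines CCL2, CCL7 and CCL12 that brings monocytes out of marrow and into tissue (ENSMUSG00000049103, chr9:124101950-124113557, plus strand), had 1219, 878, 1143 and 1039 normalized counts in 12-month Pdgfrb-KO libraries, 647, 648, 1015 and 810 in 12-month controls and 362, 481, 461 and 471 in 2-month controls. The ranges of the KO and the 12-month control libraries overlapped, whereas both lay above the 2-month libraries. With age Ccr2 was 1.74-fold higher (95% interval 1.39 to 2.18, limma adjusted p = 0.00321). With deletion the ratio was 1.39 (95% interval 1.08 to 1.77, limma adjusted p = 0.0916). Leaving out 12-month control replicate 3, again the highest of its group, gave a limma adjusted p of 0.0407.

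Ly6c2, the gene of the Ly6C antigen by which classical monocytes are sorted (ENSMUSG00000022584, chr15:75108158-75111970, minus strand), passed in neither comparison. It had 935, 605, 1660 and 866 normalized counts in 12-month Pdgfrb-KO libraries, 708, 503, 811 and 934 in 12-month controls and 639, 902, 557 and 419 in 2-month controls. The 3 ranges overlapped throughout, and Pdgfrb-KO replicate 3 stood well above every other library. The ratio was 1.32 with deletion (95% interval 0.86 to 2.00, limma adjusted p = 0.386) and 1.19 with age (95% interval 0.85 to 1.67, limma adjusted p = 0.44). The interval with deletion includes the estimate of Ccr2, while with age it ends below the 1.74-fold of Ccr2, and the difference between these genes was not tested.

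**Figure D2:**
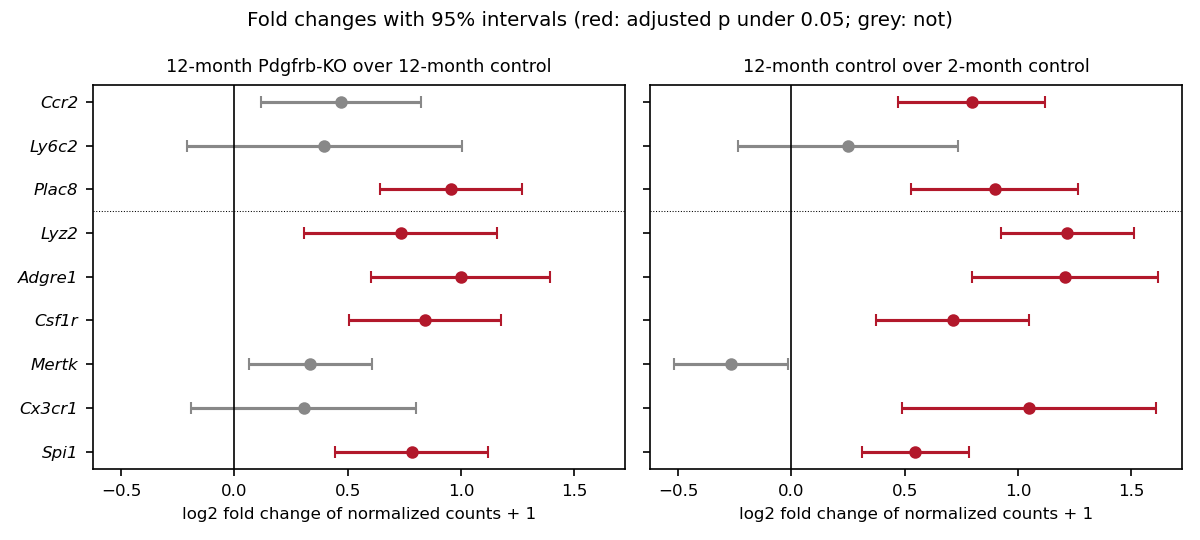
Log2 fold change of normalized counts plus 1 (x axis) for the 9 genes, monocyte genes above the dotted line and macrophage genes below it, for 12-month Pdgfrb-KO over 12-month control (left) and 12-month control over 2-month control (right). Points are limma estimates and bars 95% intervals, red where the adjusted p was under 0.05: 5 genes on the left and 7 on the right.

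A pair of the 9 genes have near copies beside them on the chromosome. Lyz1, the Paneth-cell lysozyme gene, neighbours Lyz2, and 15.4% of the distinct 50-base runs of the annotated Lyz2 transcripts also occur in those of Lyz1, so reads can be split between them. Lyz1 had 396 ± 214 normalized counts in 12-month Pdgfrb-KO libraries, 527 ± 93.2 in 12-month controls and 299 ± 66.6 in 2-month controls (SD, n = 4). It was higher with age (log2 fold change 0.83, limma adjusted p = 0.00574) and not called with deletion (-0.56, limma adjusted p = 0.296), where its estimate and that of Lyz2 had opposite signs. Ly6c1, which endothelial cells and some T cells express, is the main sharer of the 14.4% of 50-base runs of Ly6c2 that other genes also hold, and 5.81% of the 100-base runs of Ly6c2 occur in Ly6c1 and in no other gene. Per kilobase of exon Ly6c1 was the more abundant copy (3992 against 371 in KO libraries). Its normalized counts were 6695 ± 1110 in 12-month Pdgfrb-KO libraries, 6874 ± 1322 in 12-month controls and 5295 ± 123 in 2-month controls (SD, n = 4), and it passed in neither comparison (limma adjusted p = 0.916 with deletion and 0.0526 with age). The values of Lyz2 and Ly6c2 are uncertain to that extent. The other 7 members shared at most 1.91% of their 50-base runs with any gene, the highest being Ccr2.

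The stretch before the start of both Ly6c genes is shown because they are near copies with unlike levels. Of these stretches only that of Ly6c2 holds the binding letters of PU.1, and whether the letters have a part in the levels was not tested. Shown are the 130 bases upstream of the outermost RefSeq start, on GRCm38.p6, minus strand, at chr15:75111972-75112101 for Ly6c2 and chr15:75048838-75048967 for Ly6c1. Capitals mark GAGGAAGT, the letters searched for PU.1, on either strand.
Ly6c2: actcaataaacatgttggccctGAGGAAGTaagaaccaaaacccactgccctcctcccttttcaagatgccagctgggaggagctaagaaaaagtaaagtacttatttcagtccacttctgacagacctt
Ly6c1: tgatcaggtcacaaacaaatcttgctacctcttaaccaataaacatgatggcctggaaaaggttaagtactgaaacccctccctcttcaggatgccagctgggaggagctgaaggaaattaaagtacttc
Aligned end to end with free ends, 77 of 96 paired bases (80.2%) were identical, and the longest identical run was 20 bases. RefSeq promoter windows, 250 bases before to 50 after a start, were at hand for 6 of the 9 genes. GAGGAAGT stood in those of Ly6c2 alone, and in 3.20% of all 32851 windows. The window of the outermost Ly6c2 start held it once more, at position 26 after that start. A further window of Ly6c1, from a start inside the gene, also held it. TTGCNNAA, searched for C/EBP factors on both strands, stood in the window of the inner start of Plac8 and in 10.8% of all windows. These are matches of letters and not measured binding sites.

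Set against each other as means over all 3 monocyte and all 6 macrophage genes, the sets differed little in balance between groups. The mean log2 level of the 3 monocyte genes minus that of the 6 macrophage genes was -0.72 ± 0.35 in 12-month Pdgfrb-KO libraries, -0.66 ± 0.25 in 12-month controls and -0.57 ± 0.25 in 2-month controls (SD, n = 4). The group means differed by -0.06 with deletion and -0.10 with age, less than the SD between libraries of 1 group, and no test was run on this score. With Ly6c2 left out the differences were 0.05 and 0.10, so even their sign depended on that gene. The macrophage mean includes Mertk, the only member with a negative estimate with age (log2 fold change -0.27). The 5 macrophage genes called higher with age had log2 fold changes of 0.55 to 1.22, against 0.25 to 0.90 for the 3 monocyte genes. The score without Mertk was not worked out, so the small difference of the full score with age holds for this choice of genes only. Both means were higher in each step: the monocyte mean was 10.37 ± 0.29, 9.76 ± 0.28 and 9.12 ± 0.27 in KO, 12-month control and 2-month control libraries, and the macrophage mean 11.10 ± 0.20, 10.43 ± 0.26 and 9.68 ± 0.14.

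Single genes differed in their balance all the same. Mertk was low relative to Adgre1 in older mice, with 0.41 ± 0.04 Mertk counts per Adgre1 count in 12-month Pdgfrb-KO libraries, 0.65 ± 0.07 in 12-month controls and 1.82 ± 0.37 in 2-month controls (SD, n = 4). The lowest 2-month ratio was 1.44 and the highest 12-month control ratio 0.75, and the highest KO ratio was 0.45 against a lowest 12-month control ratio of 0.58. Between the sets, Ccr2 showed the same order on a smaller scale, with 0.47 ± 0.06 counts per Adgre1 count in KO libraries, 0.68 ± 0.10 in 12-month controls and 0.91 ± 0.11 in 2-month controls. Plac8 kept closer to Adgre1, at 1.02 ± 0.06, 1.07 ± 0.27 and 1.38 ± 0.56 in KO, 12-month control and 2-month control libraries, with overlapping ranges. Among the monocyte genes, Ly6c2 counts per Ccr2 count were 0.94 ± 0.35, 0.96 ± 0.20 and 1.43 ± 0.47 in KO, 12-month control and 2-month control libraries, and the ranges overlapped as well. These ratios were picked after the values had been seen and carry no test.

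**Figure D3:**
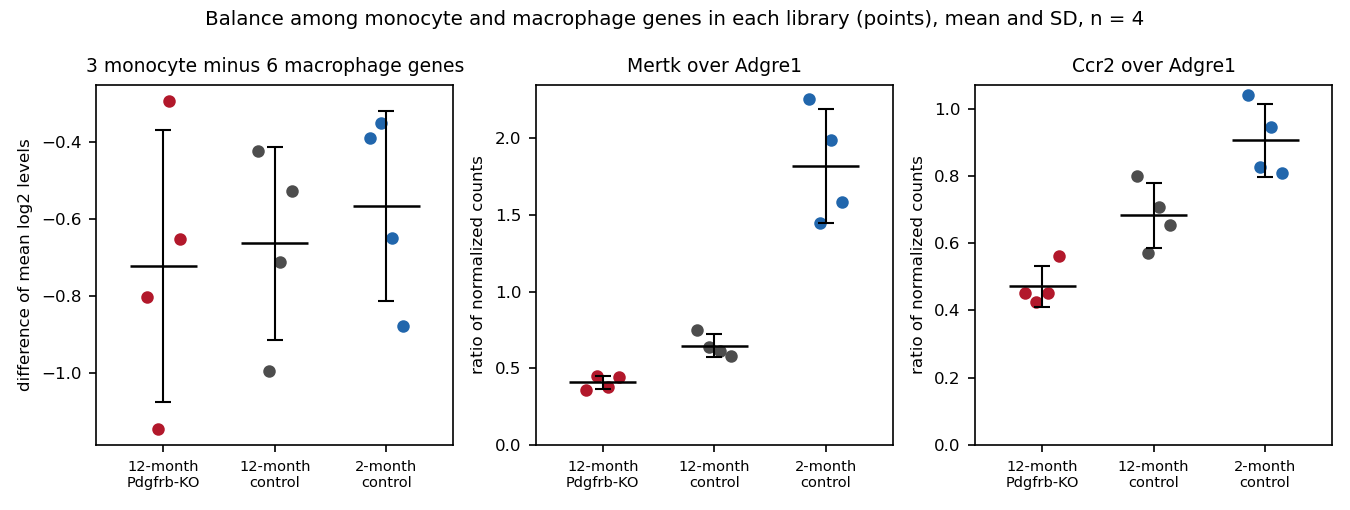
Balance among the 9 genes in 12-month Pdgfrb-KO, 12-month control and 2-month control libraries (x axis): the mean log2 level of the monocyte genes minus that of the macrophage genes (left), and the ratios of Mertk (middle) and Ccr2 (right) to Adgre1 in normalized counts. Points are libraries, lines means and bars the SD of 4 libraries; the 3 groups overlap on the left, with means of -0.72, -0.66 and -0.57, and are apart in the middle, at 0.41, 0.65 and 1.82.

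Levels of different genes can be set side by side only per length of annotated exon. Per kilobase, Lyz2 stood far above the rest, at 19374 ± 5043 normalized counts in 12-month Pdgfrb-KO libraries, 11471 ± 1822 in 12-month controls and 4909 ± 606 in 2-month controls (SD, n = 4). In KO libraries Plac8 (1459 ± 216) and Csf1r (1267 ± 192) came next and were within their spread, followed by Spi1 (859 ± 169) and Adgre1 (707 ± 122), also within it. Ly6c2 (371 ± 165) and Mertk (212 ± 16.0) were within the spread of Ly6c2, Ccr2 came after them (158 ± 21.8) and Cx3cr1 last (28.4 ± 3.09). The order was the same in 12-month controls. In 2-month controls Csf1r (435 ± 83.2) and Plac8 (411 ± 106) exchanged places within their spread, and Adgre1 (154 ± 34.2) stood seventh, below Mertk (203 ± 18.9) and Ly6c2 (230 ± 74.2).

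Libraries with high values of 1 gene tended to have high values of several. Pdgfrb-KO replicate 1 was the highest KO library for 7 of the 9 genes, and 12-month control replicate 1 was the lowest of its group for 7 (all but Ly6c2 and Plac8). Among 2-month controls, replicate 1 was the lowest for 5 genes and replicate 2 the highest for 6. For Ly6c2 and Csf1r the highest KO library was another one, replicate 3 and replicate 2.

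Profiles over the 12 libraries were compared by the root mean square difference of centred log2 levels, against 11545 genes with a mean of at least 100. Nearest to Lyz2 was Cd300a (0.11 log2 units), then Tyrobp and Fcer1g, which encode signalling adaptors of myeloid receptors. Adgre1 was nearest to Pla2g7 (0.17), Cd300a and C3ar1, and only 4 genes outside the 9 were closer to it than Lyz2. Csf1r was nearest to Pirb (0.15), Ctsb and Unc93b1, Spi1 to Pla2g15 (0.09), Unc93b1 and Cyba, and Cx3cr1 to Lair1 (0.19), Nlrp3 and Cxcr3. Ccr2 was nearest to Apobr (0.13), Nfam1 and Dse, Plac8 to Il1b (0.14), Ly86 and Hpse, and Ly6c2 to Ms4a4c (0.14), Ms4a1 and B3gnt5. Mertk was the furthest from the other members, with 4931406C07Rik (0.09), Qsox1 and B4galt1 as its nearest genes and 10078 of the 11545 nearer to it than its closest fellow among the 9, Ly6c2. This measure follows the size of differences, so a gene that varies little lies near the many genes that vary little. The count for Mertk thus restates its small differences.

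The ligands of the 4 member receptors did not move as a set. With deletion, Gas6 and Ccl12 were higher and Il34 lower out of 8. Gas6, a bridging ligand of MERTK and of its relatives, had 12676, 19423, 13698 and 16665 normalized counts in 12-month Pdgfrb-KO libraries, against 7394, 7372, 8015 and 6500 in 12-month controls (log2 fold change 1.08, standard error 0.146, limma adjusted p = 0.00157), and 6480, 6295, 6551 and 7534 in 2-month controls. Every KO library was above every other library, and the control groups overlapped. Il34, the alternative ligand of CSF1R, had 335, 310, 192 and 196 in KO libraries, 458, 778, 400 and 457 in 12-month controls and 302, 234, 261 and 214 in 2-month controls. It was lower with deletion (-1.01, limma adjusted p = 0.0259) and higher with age (1.01, limma adjusted p = 0.00313), so that KO libraries overlapped those of young mice. Csf1, the main ligand of CSF1R, passed in neither comparison (0.29 with deletion, limma adjusted p = 0.1, and 0.25 with age, limma adjusted p = 0.0779).

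Among the CCR2 ligands, Ccl7 stood out with age, at 1442, 1455, 847 and 1343 normalized counts in 12-month controls and 306, 480, 331 and 270 in 2-month controls (log2 fold change 1.87, limma adjusted p = 8.12e-05). Ccl2 was also higher with age (1.38, limma adjusted p = 0.000925). In KO libraries these chemokine genes were widely spread, Ccl7 at 5073, 3078, 1967 and 1057 and Ccl2 at 3836, 2334, 1559 and 901, and neither passed with deletion (limma adjusted p = 0.149 and 0.492). The low-abundance Ccl12 had 84, 78, 76 and 46 in KO libraries and 14, 22, 22 and 28 in 12-month controls (1.68, limma adjusted p = 0.00515). Cx3cl1, which encodes fractalkine, the ligand of CX3CR1, was lower with age (-0.45, limma adjusted p = 0.0174), opposite in sign to its receptor gene, and stood at -0.68 with deletion (limma adjusted p = 0.0683). Pros1, the other MERTK ligand, was higher with age (0.35, limma adjusted p = 0.0215) and not called with deletion (0.27, limma adjusted p = 0.226). With age, then, Ccl7, Ccl2, Il34 and Pros1 were higher among the 8, and Cx3cl1 was lower.

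**Figure D4:**
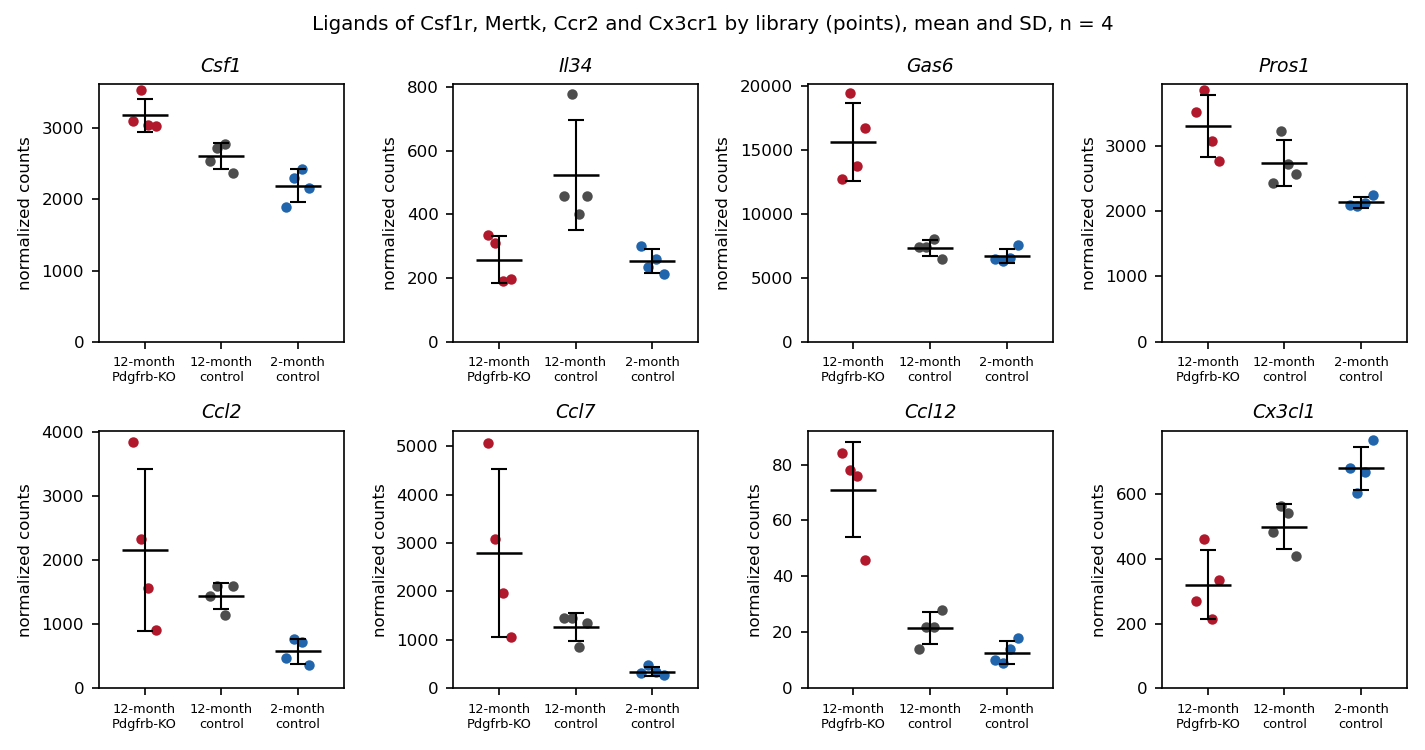
Normalized counts (y axis, from 0) of the ligands of CSF1R (Csf1, Il34), MERTK (Gas6, Pros1), CCR2 (Ccl2, Ccl7, Ccl12) and CX3CR1 (Cx3cl1) in 12-month Pdgfrb-KO, 12-month control and 2-month control libraries (x axis), with points for libraries, lines for means and bars for the SD of 4 libraries. Gas6 in KO libraries lies at 12676 to 19423, above every control library, and Ccl2 and Ccl7 are widely spread in KO libraries.

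A list of other general macrophage genes had the same direction. It too was chosen with earlier results of these data known, so it describes and is no separate support. Of 16 such genes, 10 were called higher with deletion and 0 lower (12 and 0 at an unadjusted p under 0.05), with a median log2 fold change of 0.93. Over all genes tested, 4.96% were called higher with deletion and 4.46% lower, and 11.3% higher and 11.4% lower with age. The highest-ranked were Fcgr1, the high-affinity IgG receptor gene (1.74, limma adjusted p = 0.000752), Msr1, a scavenger receptor gene (1.35, limma adjusted p = 0.00203), and the complement genes C1qb (1.34, limma adjusted p = 0.00235) and C1qc (1.53, limma adjusted p = 0.00265). With age 12 of the 16 were higher, 0 lower and 4 did not pass (median 0.94), led by the protease gene Ctss (1.13, limma adjusted p = 6.17e-05), Tyrobp, Fcer1g and Cd14, the endotoxin co-receptor gene (0.93, limma adjusted p = 0.000374). Cd68 and Cd84 passed in neither comparison.

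Further classical monocyte genes were mixed. Of 7, with deletion 3 were higher and 0 lower, namely Chil3 (2.72, limma adjusted p = 0.0118), Clec4e (1.47, limma adjusted p = 0.00579) and the integrin gene Itgam (1.45, limma adjusted p = 0.00224), all of which neutrophils express too. Ms4a4c, the gene most like Ly6c2, stood at 0.53 (limma adjusted p = 0.187). With age only Itgam of the 7 passed (0.85, limma adjusted p = 0.00371). Of 6 genes of non-classical monocytes, none was called higher in either comparison, Ace was lower with deletion (-0.52, limma adjusted p = 0.0444) and Nr4a1 lower with age (-0.37, limma adjusted p = 0.0154). Endothelial cells express Ace strongly, and many cells express Nr4a1.

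Receptors related to the 4 member receptors gave 3 of 10 higher with deletion and 0 lower: Csf3r, the receptor gene for granulocyte growth factor (1.58, limma adjusted p = 0.00097), Csf2ra (0.84, limma adjusted p = 0.00959) and Ccr1 (1.19, limma adjusted p = 0.0148). With age Axl, Csf2ra and Ccr1 were among those higher (0.87, 0.68 and 0.84) and Csf2rb was lower (-0.62). Tyro3, the third relative of Mertk and Axl, passed in neither. Of 14 myeloid transcription factor genes, Maf alone was higher with deletion (0.84, limma adjusted p = 0.0169) and Klf4 alone lower (-0.78, limma adjusted p = 0.00225). With age Maf, Cebpa and Nr1h3 were among those higher (0.69, 0.65 and 0.42) and Gfi1 and Irf4 lower (-1.23 and -0.47).

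Markers of other cells moved in places beside these genes. Of 8 broad leukocyte genes, 0 passed in either direction with deletion (limma, 1 at an unadjusted p under 0.05) and 1 was higher with age (Cd52, 0.47, limma adjusted p = 0.0209), and Ptprc, which encodes CD45, stood at 0.04 and -0.34. Neutrophil genes, which matter for Lyz2 and Plac8, were higher with deletion in 4 of 7 tested (Cxcr2, S100a9, S100a8 and Retnlg, log2 fold changes 2.30, 2.31, 1.87 and 1.85) and 0 lower, and summed over 10 genes to 606 to 1387 in KO libraries, 186 to 659 in 12-month controls and 310 to 391 in 2-month controls. Ly6g, the defining neutrophil marker, was near 0, with a mean of 3.75 in KO libraries, 0.25 in 12-month controls and 1.5 in 2-month controls. The neutrophil genes' part in the deletion result for Lyz2 and Plac8 was not tested. With age 0 of 7 neutrophil genes passed in either direction (limma, 0 also at an unadjusted p under 0.05), while all 6 mast cell genes were higher, their sum being 3713 to 7171 in 12-month controls and 1707 to 2536 in 2-month controls, and the part of mast cells in the age result for Spi1 was not tested. Of the B cell genes, B cells being the other source of Spi1, Cr2 was higher with age (0.58, limma adjusted p = 0.0289).

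Dendritic cell genes were mixed. With age Cd209a, Itgax and Batf3 of 7 were higher (1.30, 1.40 and 0.89) and Zbtb46 was lower (-0.39), the sum of the 7 being 7383 to 12687 in 12-month controls and 10589 to 12941 in 2-month controls. With deletion Itgax, which encodes CD11c and which some macrophages also express, was the only 1 of the 7 called, and it was lower (-1.23, limma adjusted p = 0.01), opposite in sign to Adgre1 and Csf1r. The sum of the 7 was 8038 to 11872 in KO libraries, against 7383 to 12687 in 12-month controls. Ccr7 made up most of these sums, with means of 7841 in KO libraries, 7753 in 12-month controls and 10622 in 2-month controls. The sums therefore say little about the other dendritic cell genes. Of the mast cell genes, Kit was lower with deletion (-0.69, limma adjusted p = 0.0227) and the other 5 were not called. With age the adipocyte genes Adipoq, Lep and Cidec of 4 were also higher (1.48, 2.93 and 1.29). Plasma cell genes were mixed with age. Of 4 tested, Jchain, the joining chain gene, was higher (4.98, limma adjusted p = 3.26e-05) and Prdm1 was lower (-0.41, limma adjusted p = 0.0346). The part of these cells in the results for the 9 genes was not tested.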

How the data were processed

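Gene counts were deposited as normalized counts: the authors aligned trimmed reads of a directional polyA library to GRCm38 (Trim Galore 0.6.0 and STAR 2.7.0e per the submitters' notes), divided each library's counts by its DESeq2 (1.26.0) size factor and rounded. Such deposited values are treated as a score and not as raw counts, so no count model was fitted, and depth before scaling was not worked out here. The counting program and its strand setting are not given in the sources used here. A pair of tables, of 55536 genes each, hold the age and the deletion comparison, and the 12-month control values are the same in both (100% of rows); 27 gene names and 1 identifier differ between them. Csf1r, Mertk and Cx3cr1 overlap other annotated genes (2, 2 and 9).

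Each comparison was fitted on its own 8 libraries with limma 3.58.1 (R 4.3.3; trend and robust estimation) on log2(value + 1), for genes of at least 10 in at least 4 of 8 libraries, two-sided, with Benjamini-Hochberg adjustment over all genes tested and a threshold of 0.05. Intervals are at 95%. A fold change on this scale understates low genes slightly. The labels name biological replicates and each library is 1 mouse. Python 3.11.15 was used for descriptions, and the fit was tested on simulated data. Of the genes' identifiers, 55450 of 55536 matched GENCODE vM21, which gave positions, exon lengths and transcript runs; promoter windows are RefSeq's for GRCm38.p6. Named genes were all 9 members, Pdgfrb, the near copies, the 8 ligands, up to 4 called and 2 uncalled genes per list, the 3 genes nearest each member by profile and any in a count of 5 or fewer. The members and lists were chosen with earlier results of these data known. The study's methods describe plating of SVF cells, and whether the sequenced cells had been plated is not stated clearly. Some genes of the lists are not reported here.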

Additional observations from a re-analysis of the deposited data

Results flagged for a closer look

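Ccr2 in 2-month controls was the only 1 of 30 groups of 4 values looked at (9 genes and the monocyte minus macrophage score in 3 groups) in which a single library stood apart by Dixon's criterion: replicate 1 had 362 normalized counts, against 461, 471 and 481 in the others. Chance marks about 1 in 20 such groups. That library was also the lowest of its group for Lyz2, Adgre1, Csf1r and Mertk.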

How the results depend on the processing

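Of 162 values for the 9 genes with age, 160 kept their direction and their side of the threshold, and of 162 with deletion, 152 did, over other pseudocounts, filters, scalings, variance models, a joint fit of all 12 libraries, a replicate block and each library left out in turn; none changed sign. The count of genes lower with age was 1 in place of 0 with weights per library and ranged over 0 to 1 with a library left out (Mertk, without 12-month control replicate 3). Lyz2 lost its call with deletion without trend and robust estimation (limma adjusted p = 0.0769) and in 7 of the 8 fits that left out a library, so that 4 to 5 genes were higher in those fits, against 7 throughout with age. The sign of the monocyte minus macrophage difference turned without Ly6c2, and over fits that left out a library it ranged over -0.2 to 0.08 with deletion and -0.2 to 0.01 with age. Replicate numbers did not pair the libraries (correlations of same-numbered deviations of -0.02 to 0.38 with deletion and -0.22 to 0.16 with age, and not every library matched its own number best). With the replicate block 6 genes were higher with deletion in place of 5, the addition being Ccr2 (limma adjusted p = 0.0365), and 7 with age. Each group held 4 mice, which limits how small a difference in Ly6c2, Cx3cr1 or Mertk could be detected.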
